A study of Mus musculus with 32 samples.

Results

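The chemokines and their receptors were followed as 55 genes in mouse kidney: 34 ligands (19 of the CC class, 13 of the CXC class and 2 of the XC and CX3C classes), 17 receptors that signal through G proteins, and 4 atypical receptors. They were taken by symbol, as every array feature that names a single gene whose symbol is that of a numbered chemokine or chemokine receptor, with the feature of highest mean signal kept for each symbol, and they are 55 of the 22180 genes tested. The mice were males of strain 129, either Col4a3-/-, which lack the α3 chain of type IV collagen (called KO here), or Col4a3+/+ (WT). Littermates served as controls, and 8 mice of each genotype were studied at 4 weeks and 8 at 7 weeks. Total kidney RNA of every animal was run on its own array, 32 in all. The sources used here do not say which part of Col4a3 is missing.

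Chemokines are small secreted proteins that bind receptors with a heptahelical fold on leukocytes and guide their movement along gradients. The class is named for the spacing of the first cysteines of the ligand (CC, CXC, CX3C, XC), and most signalling receptors take ligands of a single class, often several of them. Some ligands are made at steady state and place cells within a tissue, such as Cxcl12, while others are made when a tissue is injured or inflamed, such as Ccl2, which draws monocytes through Ccr2. Atypical receptors bind and clear ligands without G protein signalling. In the kidney both resident cells (tubule, endothelium, mesangium) and leukocytes can make chemokines. The Col4a3-/- mouse is a model of Alport syndrome, in which the glomerular basement membrane is defective and the kidney later becomes inflamed and fibrotic.

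Values are RMA levels on a log2 scale, so a difference of 1 is a doubling; where 3 values are given for a group, they are the lowest, the median and the highest of its 8 mice. In the KO mice the Col4a3 level was 7.60, 7.86 and 8.42 at 4 weeks against 8.46, 8.91 and 9.33 in WT, and 6.97, 7.15 and 7.87 at 7 weeks against 8.74, 8.93 and 9.06. The groups did not overlap at either age (exact permutation test over 12870 splits, two-sided, p = 0.000155 each). The mean level of 7 tubule markers lay between 11.20 and 12.14 in every mouse. At 7 weeks 4 of the 7 were lower in KO (Slc12a3, Slc34a1, Lrp2 and Cubn) and 0 higher, with a median difference of -0.37 and list means of 11.47 to 11.91 in KO and 11.87 to 12.14 in WT, and the part of this in the chemokine differences was not tested. At 4 weeks, 2 WT mice stood apart from the other 6 for these genes: mouse 5 lay above all 6 in 18, and mouse 8 in 21, of the 34 members that rose in KO at 7 weeks, and both did in 14. Among the other 21 members they did so in 2 and 6. The mean of 14 macrophage and monocyte markers was 7.18 in mouse 5 and 7.35 in mouse 8, and 6.57 to 6.64 in the other 6. Results at 4 weeks are therefore given with and without these mice. Sources do not say how the mice were spread over litters, so the tests measure the spread between mice as deposited.

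At 7 weeks, 34 of the 55 members (61.8%) were higher in KO than in WT at an adjusted p below 0.05 (limma, Benjamini-Hochberg over all genes) and 0 were lower, against 15.6% of all genes tested higher and 16.7% lower. The median difference over the members was 0.73, and over all genes -0.06. Among the classes, 11 of 19 CC ligands, 11 of 13 CXC ligands, 2 of 2 XC and CX3C ligands, 10 of 17 receptors and 0 of 4 atypical receptors rose. Of the 34 that rose, 30 rose at least 1.5-fold, 20 at least 2-fold, 11 at least 4-fold and 7 at least 8-fold. All 8 KO mice lay above all 8 WT mice for 24 members, which is 43.6% of them, against 7.62% of all genes, and for 0 members did all KO mice lie below (5.42% of all genes). The 34 kept their calls when array medians were centred over all features or the arrays were quantile normalized. Centring the arrays on the median of the genes tested moved the median of all genes by -0.11, and then 33 members rose (Cxcr3 no longer passed) and 6 fell (Ackr4, Ccl25, Ccl26, Cxcl12, Cxcl15 and Cxcr1). With that centring 23.6% of the calls over all genes were higher, against 48.4% as deposited.

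At 4 weeks, 0 of the 55 members passed in either direction with all mice (limma; 10 had an unadjusted p below 0.05), and 0.0316% of all genes were higher and 0.00902% lower. The members' median difference was 0.11, that over all genes -0.01. The KO and WT ranges overlapped for all 55; among all genes 0.0271% had every KO mouse above and 0.0225% every KO mouse below. The 4-week and 7-week differences of each member are set side by side in the plot of KO minus WT differences.

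**Figure D1:**
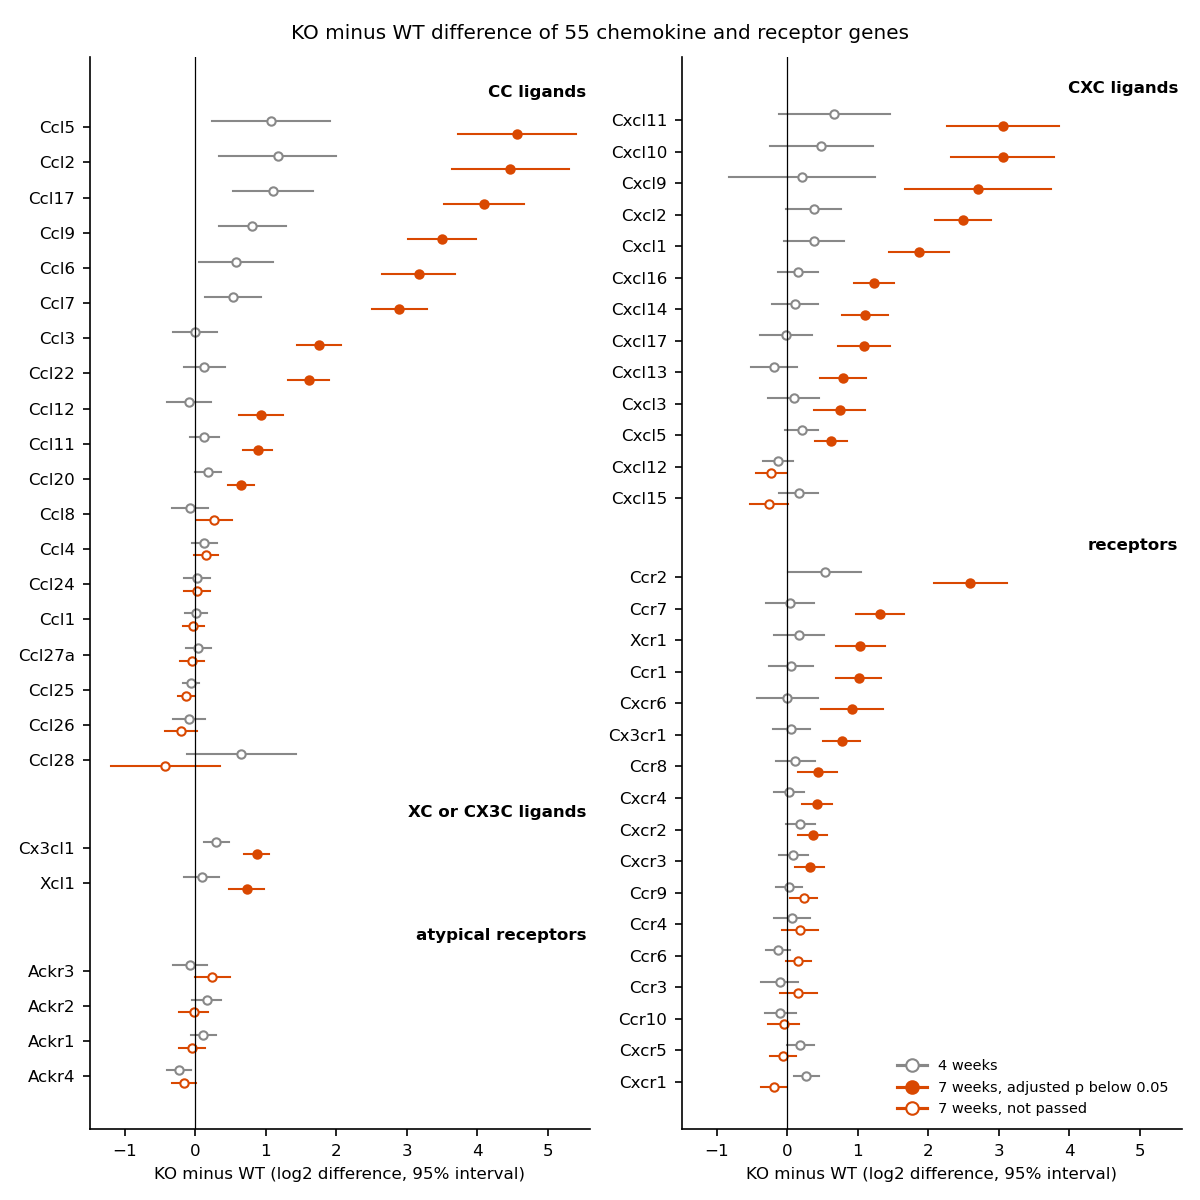
KO minus WT difference in log2 intensity with its 95% interval for each of the 55 genes (rows, grouped by class) at 4 weeks (grey) and 7 weeks (orange), 8 mice per group. Filled points passed at an adjusted p below 0.05: 34 at 7 weeks, all to the right of 0, and 0 at 4 weeks.

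Among the ligands of Ccr2, the receptor that brings monocytes into tissue, Ccl2 and Ccl7 rose most. The Ccl2 level at 7 weeks was 5.89, 5.98 and 6.27 in WT and 9.95, 10.51 and 11.02 in KO, a difference of 4.47 ± 0.41 (SE; 22.2-fold, adjusted p = 1.95e-10). Every KO mouse lay far above every WT mouse, and the gap between the groups was wider than the spread within either. Ccl7, a further monocyte attractant, was at 5.21, 5.49 and 5.69 in WT and 7.56, 8.43 and 8.89 in KO, also without overlap, and rose by 2.90 ± 0.19 (7.44-fold, adjusted p = 3.77e-13). Ccl12, the closest mouse relative of Ccl2, rose by 0.93 ± 0.15 from a low signal; in no group did its mean exceed the 25th percentile of gene levels (4.86).

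The ligands of Ccr1, a receptor of monocytes, macrophages and neutrophils, rose together. Ccl5, which also attracts T cells, had the largest difference of all members, from 5.73, 6.17 and 6.62 in WT to 10.21, 10.70 and 11.30 in KO (4.57 ± 0.41, 23.7-fold, adjusted p = 1.34e-10). Ccl9 was at 6.25, 6.43 and 6.76 in WT and 9.32, 10.06 and 10.58 in KO (3.50 ± 0.24, 11.3-fold, adjusted p = 3.77e-13). For both genes the lowest KO mouse was well above the highest WT mouse. Ccl6, like Ccl9 a ligand made by myeloid cells of rodents, was at 4.93, 5.32 and 5.68 in WT and spread from 7.38 through a median of 8.55 to 9.43 in KO (3.17 ± 0.26, 8.99-fold, adjusted p = 1.63e-11). Ccl3, a product of activated macrophages, went from 5.10, 5.38 and 5.80 to 6.56, 7.09 and 7.70 (1.75 ± 0.15, 3.37-fold, adjusted p = 1.01e-10). Neither gene's groups overlapped. Its neighbour Ccl4, usually made by the same cells, did not pass, with a difference of 0.15 ± 0.09 and overlapping groups.

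Ccl17 and Ccl22 are the ligands of Ccr4, a receptor of helper and regulatory T cells. Ccl17 rose from 5.17, 5.47 and 5.70 in WT to 8.93, 9.50 and 10.24 in KO (4.10 ± 0.28, 17.2-fold, adjusted p = 4.78e-13). Ccl22 was at 4.35, 4.74 and 4.96 in WT and 5.56, 6.25 and 7.04 in KO (1.61 ± 0.14, 3.05-fold, adjusted p = 8.82e-11). The groups were apart for both. Ccl11, which draws eosinophils through Ccr3, rose by 0.88 ± 0.10 with no overlap, and Ccl20, the ligand of Ccr6, by 0.65 ± 0.09 with 7 of 8 KO mice above the highest WT mouse. The 8 CC ligands that did not pass were Ccl1, Ccl4, Ccl8, Ccl24, Ccl25, Ccl26, Ccl27a and Ccl28, with differences from -0.43 (Ccl28) to 0.27 (Ccl8). Ccl28 had a wide interval, from -1.20 to 0.35. Of 6 eosinophil and mast cell markers, 1 rose (Cpa3, 0.44 ± 0.16) and 0 fell. The mean level of the list was 3.88 to 4.25 in KO and 3.81 to 4.22 in WT at 7 weeks. These means lay below the 25th percentile of gene levels (4.86), and the part of the list in the Ccl11 difference was not tested.

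**Figure D2:**
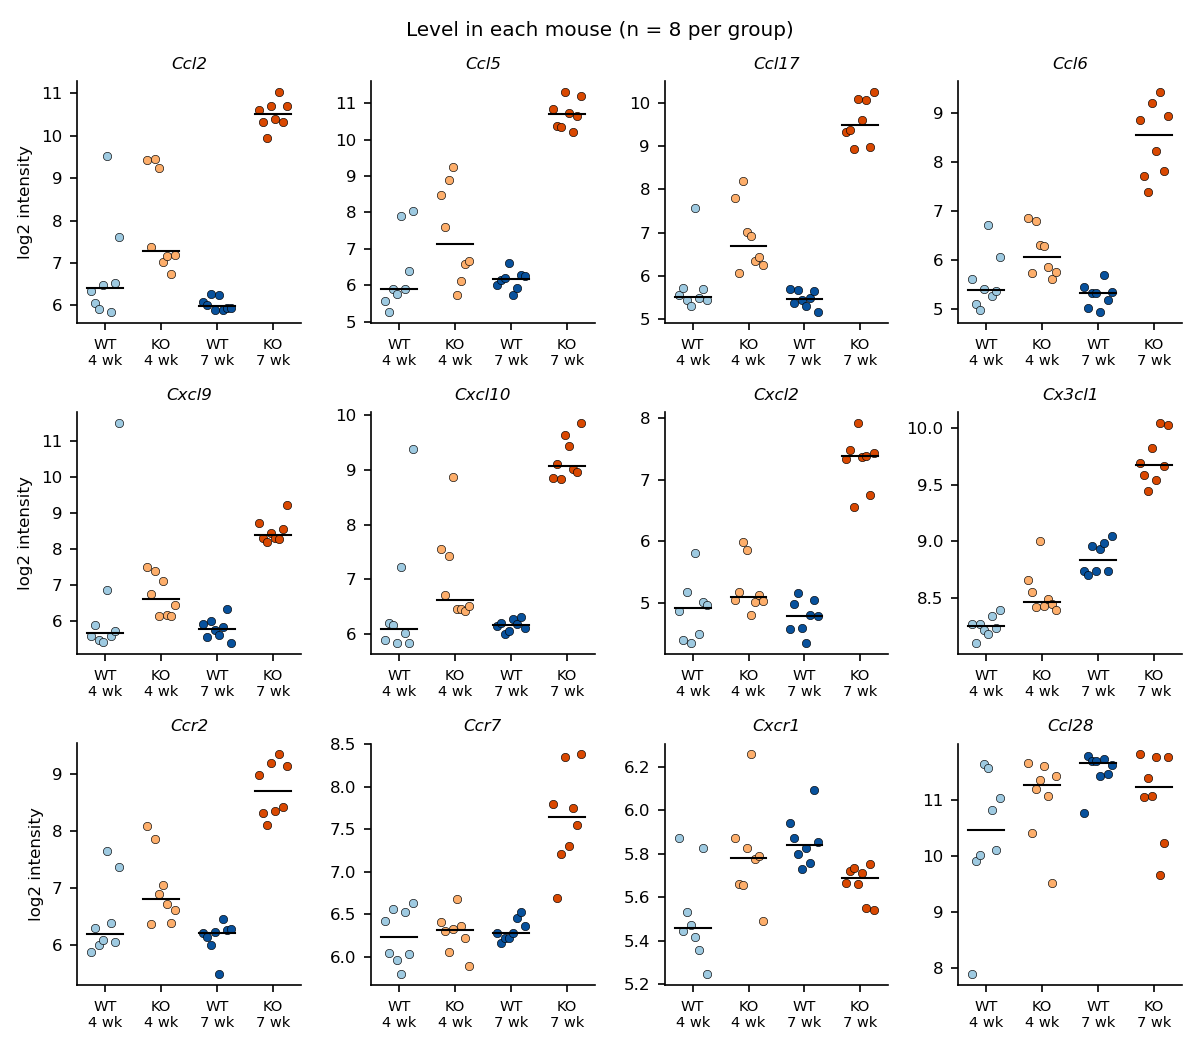
Level of 12 members in each mouse (log2 intensity, y axis; 1 point per mouse, bar at the median) in WT and KO at 4 and 7 weeks. The KO mice at 7 weeks stand above all WT mice of that age for Ccl2, Ccl5, Ccl17, Ccl6, Cxcl9, Cxcl10, Cxcl2, Cx3cl1, Ccr2 and Ccr7, while at 4 weeks single WT mice reach the KO levels (Ccl2 9.53, Cxcl9 11.48).

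The CXC ligands of Cxcr3, which are induced by interferon and attract activated T cells and NK cells, rose to a similar extent. At 7 weeks Cxcl9 was at 5.37, 5.78 and 6.32 in WT and 8.19, 8.37 and 9.21 in KO (2.71 ± 0.51, 6.53-fold, adjusted p = 6.84e-05). Cxcl10 was at 6.00, 6.16 and 6.31 in WT and 8.83, 9.07 and 9.85 in KO (3.05 ± 0.36, 8.31-fold, adjusted p = 3.32e-08). Cxcl11 was at 6.79, 6.99 and 7.32 in WT and 9.78, 10.001 and 10.48 in KO (3.06 ± 0.39, 8.33-fold, adjusted p = 1.38e-07). None of the 3 had overlapping groups at this age. The standard errors use the spread within all 4 groups, and WT mouse 8 at 4 weeks was at 11.48, 9.38 and 10.42 for these genes. The RefSeq annotation used for names lists Cxcl11 as a transcribed pseudogene, so its signal is given as RNA only. That entry describes the reference assembly, and whether it holds in the strain of these mice was not tested.

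The neutrophil attractants, which act through Cxcr2, rose as well. Cxcl2 went from 4.35, 4.79 and 5.16 in WT to 6.56, 7.38 and 7.92 in KO (2.49 ± 0.19, 5.63-fold, adjusted p = 5.42e-12). Cxcl1 went from 4.95, 5.43 and 6.04 to 6.70, 7.29 and 7.94 (1.87 ± 0.21, 3.65-fold, adjusted p = 1.1e-08). Both were apart between genotypes, whereas Cxcl3 (0.74 ± 0.18, with a signal below the 25th percentile of gene levels in every group) and Cxcl5 (0.62 ± 0.11) rose with overlap, 6 of 8 KO mice exceeding the highest WT mouse for each. Of 8 neutrophil markers, 0 rose and 2 fell at 7 weeks. Ltf fell by 0.25 ± 0.07 and Camp by 0.27 ± 0.10 (limma, adjusted p = 0.0495 for Camp). The list's mean level was 4.38 to 4.65 in KO and 4.47 to 4.73 in WT. These means lay below the 25th percentile of gene levels (4.86), and a change in neutrophil number was not tested.

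Of the other CXC ligands, 4 rose. Cxcl16, a membrane-bound ligand of Cxcr6 that also acts as a scavenger receptor, rose by 1.23 ± 0.14, Cxcl14, made by epithelia, by 1.10 ± 0.16, and Cxcl17, a mucosal attractant, by 1.09 ± 0.18. Cxcl13, which places B cells in follicles through Cxcr5, rose by 0.79 ± 0.16 with 6 of 8 KO mice above the WT range. Of 6 B cell and plasma cell markers, 2 rose (Cd79b and Jchain) and 0 fell, and the list's mean level was 5.89 to 6.62 in KO and 5.66 to 6.23 in WT; its part in the Cxcl13 difference was not tested. The 2 CXC ligands that did not pass were Cxcl12 and Cxcl15. Cxcl12, the steady-state ligand of Cxcr4, was at 8.82, 9.23 and 9.35 in WT and 8.47, 8.95 and 9.39 in KO, overlapping ranges with a difference of -0.23 ± 0.11 (adjusted p = 0.0951).

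Cx3cl1 (fractalkine), anchored on endothelial and epithelial cells, rose by 0.87 ± 0.09 (1.83-fold, adjusted p = 1.08e-09) and its 8 KO mice were all above WT. Xcl1, which attracts cross-presenting dendritic cells, rose by 0.73 ± 0.12 (adjusted p = 1.39e-05), also without overlap. Both receptors of these ligands rose too, as described next.

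Of the 17 signalling receptors, Ccr2 rose most. The Ccr2 level at 7 weeks was 5.49, 6.21 and 6.45 in WT and 8.11, 8.69 and 9.34 in KO (2.60 ± 0.25, 6.06-fold, adjusted p = 7.74e-10), with a clear gap between the groups. Macrophage and monocyte markers moved with it: 12 of 14 rose and 1 fell (Mertk), with a median difference of 2.11, led by Cd68 (2.64 ± 0.19), Cd14 (3.56 ± 0.26) and Lyz2 (4.07 ± 0.30), and the list's mean level was 8.04 to 9.19 in KO and 6.60 to 6.82 in WT. In whole kidney RNA, more cells of a type and more RNA per cell cannot be told apart, nor can fewer cells and less RNA per cell, and the part of these cells in the chemokine differences was not tested. Cx3cr1, the fractalkine receptor of monocytes and resident macrophages, rose from 6.97, 7.15 and 7.45 to 7.61, 7.94 and 8.35 (0.77 ± 0.13, adjusted p = 1.09e-05). Ccr1 rose from 4.08, 4.40 and 4.71 to 4.82, 5.44 and 6.03 (1.01 ± 0.15, adjusted p = 3.26e-06). The groups did not overlap for either receptor.

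Receptors of dendritic cells rose too. Ccr7, which carries mature dendritic cells and T cells to lymph nodes, was at 6.17, 6.28 and 6.53 in WT and 6.69, 7.65 and 8.38 in KO (1.32 ± 0.17, 2.49-fold, adjusted p = 1.49e-07). Xcr1, found on cross-presenting dendritic cells, was at 4.79, 5.21 and 5.47 in WT and 5.71, 6.39 and 6.74 in KO (1.04 ± 0.17, adjusted p = 1.26e-05). Both were apart between genotypes. Dendritic cell markers rose in 4 of 7 cases (Itgax, Cd83, H2-Ab1 and Flt3) and fell in 0. Batf3 (0.19 ± 0.10), Zbtb46 (0.14 ± 0.07) and Cd209a (-0.19 ± 0.10) did not pass. The list mean was 7.25 to 7.79 in KO and 6.47 to 6.70 in WT. The part of that list in the receptor differences was not tested.

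Cxcr6, a receptor of tissue T cells and NKT cells, was at 4.33, 4.77 and 5.15 in WT and 4.86, 5.75 and 6.14 in KO (0.92 ± 0.22, adjusted p = 0.000959); 7 of 8 KO mice lay above the highest WT mouse. Cxcr3, on activated T cells, was at 5.70, 5.89 and 6.11 in WT and 5.72, 6.25 and 6.44 in KO (0.32 ± 0.10, adjusted p = 0.0163), and KO mouse 2 sat at the bottom of the WT range. Ccr8, on regulatory and type-2 helper T cells, was at 4.22, 4.79 and 5.14 in WT and 4.82, 5.07 and 5.66 in KO (0.43 ± 0.14, adjusted p = 0.0131), with 3 of 8 KO mice above the WT range. Among 9 T cell markers 8 rose and 0 fell, led by Il7r (2.21 ± 0.20) and Cd8b1 (0.94 ± 0.11), and the list's mean level was 5.91 to 6.71 in KO and 5.22 to 5.47 in WT. Of 6 NK cell markers 2 rose (Nkg7 and Klrk1) and 0 fell, with list means of 4.59 to 4.98 in KO and 4.22 to 4.63 in WT. Neither list's part in these receptor differences was tested.

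The last 2 receptors that rose are found on several cell types. Cxcr4, the Cxcl12 receptor of many leukocytes and of endothelium, was at 7.07, 7.23 and 7.47 in WT and 7.24, 7.62 and 8.05 in KO (0.42 ± 0.10, adjusted p = 0.00208). Cxcr2, the main neutrophil receptor, was at 5.78, 6.20 and 6.32 in WT and 6.02, 6.48 and 6.84 in KO (0.36 ± 0.10, adjusted p = 0.00528). For each, 6 of 8 KO mice lay above the highest WT mouse and the rest overlapped. Of 7 endothelial markers, 0 rose and 3 fell at 7 weeks (Kdr, Ehd3 and Tek), with list means of 9.35 to 9.74 in KO and 9.61 to 9.80 in WT, and the part of that list in the Cxcr4 difference was not tested. Ccr3, Ccr4, Ccr6, Ccr9, Ccr10, Cxcr1 and Cxcr5 did not pass, with differences from -0.19 (Cxcr1) to 0.23 (Ccr9). The atypical receptors Ackr1, Ackr2, Ackr3 and Ackr4 did not pass either, with differences from -0.16 (Ackr4) to 0.24 (Ackr3).

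Ligands and receptors were then paired by their established binding. Of 42 pairs listed, 35 had both members measured, over 18 receptors. The promiscuous scavengers Ackr1 and Ackr2, which bind many of the ligands that rose and did not pass themselves, were left out of the list, and the counts depend on that choice. In 18 pairs both rose at 7 weeks, in 8 the ligand alone passed, in 3 the receptor alone, and in 6 neither. A receptor with several ligands is counted once for each, as Ccr1 with Ccl3, Ccl5, Ccl6, Ccl7 and Ccl9, so the pairs are not separate observations. Of all ligands 70.6% rose, and of all signalling receptors 58.8%. No test was made of the pairing, and the counts do not show that partners rose together more often than other members. In 16 of the 18 pairs the ligand's difference was the larger; the exceptions were Ccl12 with Ccr2 (0.93 against 2.60) and Xcl1 with Xcr1 (0.73 against 1.04). The closest match was Cx3cl1 with Cx3cr1, at 0.87 ± 0.09 and 0.77 ± 0.13. The Cxcr3 pairs were far apart, with ligand differences of 2.71 to 3.06 and a receptor difference of 0.32.

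The pairs in which the ligand alone passed included both Ccr4 ligands. Ccr4 was at 3.68, 3.88 and 4.38 in WT and 3.85, 4.16 and 4.32 in KO at 7 weeks, fully overlapping, with a difference of 0.18 ± 0.13 against 4.10 for Ccl17; its signal lay below the 25th percentile of gene levels in every group. Ccr6, the receptor of Ccl20, was at 4.54, 4.85 and 5.03 in WT and 4.82, 4.93 and 5.28 in KO (0.16 ± 0.08). Cxcr5, the receptor of Cxcl13, was at 5.37, 5.59 and 5.93 in WT and 5.24, 5.52 and 5.69 in KO (-0.06 ± 0.09). The genotypes overlapped for all 3 receptors. The other pairs of this kind were Ccr3 with Ccl5 and Ccl11, Cxcr1 with Cxcl5, and the scavenger Ackr3 with Cxcl11. Ackr3 was at 7.00, 7.24 and 7.82 in WT and 7.40, 7.54 and 7.82 in KO (0.24 ± 0.12, adjusted p = 0.126). The receptor alone passed for Cxcr4 with Cxcl12 and for Ccr8 with Ccl1 and Ccl8, and neither member passed for Ccr3 with Ccl24, Ccr9 with Ccl25, Ccr10 with Ccl27a and Ccl28, Ackr3 with Cxcl12 and Ackr4 with Ccl25.

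**Figure D3:**
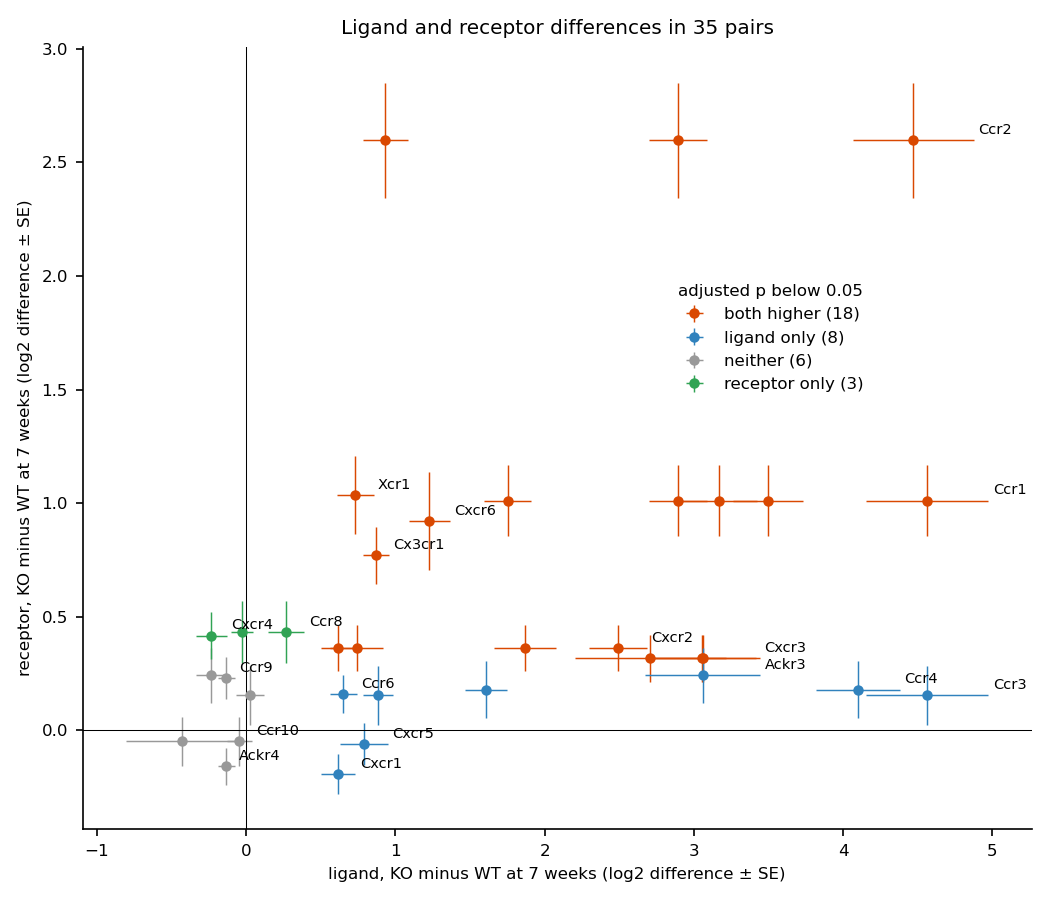
KO minus WT difference at 7 weeks of the receptor (y axis) against that of its ligand (x axis), both in log2 units with standard errors, for 35 pairs; a label stands at the pair with the largest ligand difference of each receptor. Colours give which member passed. Of the 18 pairs in which both rose (orange), the ligand has the larger difference in 16. Pairs of the same receptor share its value.

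At 4 weeks Ccl2, Ccl17, Ccl5 and Ccl9 had the largest differences of the 55, but none passed. Ccl2 was at 5.84, 6.41 and 9.53 in WT and 6.74, 7.29 and 9.45 in KO (1.17 ± 0.41, adjusted p = 0.39). The KO mice were of 2 kinds for Ccl2, with mice 1, 3 and 4 at 9.44, 9.45 and 9.24 and the other 5 between 6.74 and 7.38, while among WT mouse 5 was at 9.53, mouse 8 at 7.61 and the other 6 between 5.84 and 6.52. Ccl17 was at 5.30, 5.52 and 7.58 in WT and 6.07, 6.69 and 8.20 in KO (1.10 ± 0.28, adjusted p = 0.144), and here all 8 KO mice lay above every WT mouse other than mouse 5. KO mice 1, 3 and 4 also had the highest mean macrophage marker levels of the 4-week KO mice, at 7.50, 7.39 and 7.31 against 6.82 to 7.01 in the other 5. No marker of that list passed at 4 weeks, and its part in the 4-week differences was not tested.

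Without WT mice 5 and 8, a choice made after seeing the data, 6 members were higher in KO at 4 weeks and 0 lower, against 0.243% of all genes higher and 0.0812% lower. They were Ccl2 (1.76 ± 0.33, adjusted p = 0.00742), Ccl17 (1.35 ± 0.25, adjusted p = 0.00682), Cxcl11 (1.40 ± 0.24, adjusted p = 0.00286), Cxcl9 (1.10 ± 0.19, adjusted p = 0.00523), Ccl9 (0.99 ± 0.22, adjusted p = 0.037) and Ccl5 (1.62 ± 0.37, adjusted p = 0.0463). All 6 are ligands, and all were among the members that rose at 7 weeks, the set over which WT mice 5 and 8 were seen to be high. The overlap with that set is therefore no separate result. KO mice 1, 3 and 4 of 4 weeks, the highest of their group for the mean of that set (6.57, 6.47 and 6.45), were kept. Leaving out WT mouse 5 alone gave 3 (Ccl2, Ccl9 and Ccl17), and leaving out any other single mouse gave 0. Ccr2 and Cxcl10 did not pass without both mice (adjusted p = 0.0819 and 0.0518). Since the mice were left out because they were high for these genes, the 6 calls are a description of the other mice.

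The 2 WT mice were high for some shared and some different ligands. Both lay above the other 6 for Ccl5, at 7.89 in mouse 5 and 8.04 in mouse 8 against at most 6.39. The same held for Ccl2, Ccl3, Cxcl9, Cxcl10, Cxcl11 and the receptor Ccr2, among others. Mouse 8 was at 11.48 for Cxcl9, above every KO mouse of 7 weeks, and at 9.38 for Cxcl10 and 10.42 for Cxcl11, but at 5.44 for Ccl17 and 6.41 for Ccl9, within the other 6. Mouse 5 was at 9.53 for Ccl2, 7.58 for Ccl17 and 8.01 for Ccl9, and lower than mouse 8 for Cxcl9 (6.86) and Cxcl10 (7.23). For the receptors, mouse 8 had the highest WT level of Cxcr6 (6.62) and Xcr1 (6.61), and mouse 5 of Ccr2 (7.64). Mean T cell marker levels were 6.06 in mouse 8, 5.22 in mouse 5 and 5.21 to 5.35 in the other 6, and mean NK cell marker levels were 5.34, 4.58 and 4.35 to 4.53. The part of these cells in the 2 mice's chemokine levels was not tested.

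The KO minus WT difference, taken with its sign, was higher at 7 weeks than at 4 weeks for 28 members and lower for 1. These calls come from the test of the difference itself (limma interaction), against 9.8% of all genes higher and 7.24% lower. A lower call can mean that a gene's KO level fell further below WT. Centring on the genes tested changed the share of higher calls among all calls of this test from 57.5% to 33.2%. All 28 were among the 34 that rose at 7 weeks, a comparison that shares its 7-week values with this test. The largest changes were those of Ccl5 (3.49 ± 0.58, adjusted p = 6.11e-05), Ccl2 (3.30 ± 0.58, adjusted p = 0.000113) and Ccl17 (3.00 ± 0.39, adjusted p = 2.52e-06). Cxcl3, Cxcl5, Ccr8, Cxcr2, Cxcr3 and Cxcr4 rose at 7 weeks without passing this test. Cxcr6 passed with an adjusted p of 0.0325, and lost the call when any of 7 single mice was left out.

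The exception in the other direction was Cxcr1, a neutrophil receptor next to Cxcr2 in the genome. The Cxcr1 level was 5.25, 5.46 and 5.87 in WT and 5.49, 5.78 and 6.26 in KO at 4 weeks, and 5.73, 5.84 and 6.10 in WT and 5.54, 5.69 and 5.75 in KO at 7 weeks. The genotypes overlapped at both ages: 1 KO mouse lay above the WT range at 4 weeks, and 6 of 8 lay below it at 7 weeks. The difference went from 0.27 ± 0.09 to -0.19 ± 0.09, a change of -0.46 ± 0.12 (adjusted p = 0.00789), although neither age passed by itself.

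Within the WT mice, 4 members rose from 4 to 7 weeks and 2 fell, against 15.4% of all genes higher and 14.1% lower. With array medians centred over all features, 72.7% of such calls over all genes were higher, against 52.1% as deposited. Cx3cl1 went from 8.10, 8.25 and 8.39 at 4 weeks to 8.70, 8.84 and 9.05 at 7 weeks, with no overlap (0.61 ± 0.09, adjusted p = 3.53e-06). In KO the same gene went from 8.39, 8.47 and 9.002 to 9.44, 9.68 and 10.04 (1.18 ± 0.09, adjusted p = 5.47e-12). Cxcr1 rose in WT by 0.34 ± 0.09 (adjusted p = 0.00316).

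Ccl28, an epithelial ligand of Ccr10, went in WT from 7.90, 10.46 and 11.63 to 10.76, 11.65 and 11.78 (1.15 ± 0.38, adjusted p = 0.021), and lost the call without WT mouse 1 of 4 weeks, which was at 7.90. In the KO mice Ccl28 was at 9.51, 11.27 and 11.64 at 4 weeks and 9.66, 11.23 and 11.80 at 7 weeks. It was therefore variable within 3 of the 4 groups and high with little spread only in WT at 7 weeks, where mouse 1 alone stood below the others. Cxcr4 rose in WT from 6.75, 6.94 and 7.35 to 7.07, 7.23 and 7.47 (0.28 ± 0.10, adjusted p = 0.0449). Ccl25, a ligand of Ccr9 known from thymus and gut, fell from 6.65, 6.84 and 6.88 to 6.43, 6.55 and 6.64 (-0.26 ± 0.06, adjusted p = 0.000554), with no overlap. Ccl4 fell from 5.76, 5.94 and 6.37 to 5.37, 5.78 and 5.94 (-0.22 ± 0.09, adjusted p = 0.0485). The calls of Ccl4 and Cxcr4 were lost in several of the alternatives, among them a fit with the replicate number as a block.

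Within the KO mice, 34 members rose from 4 to 7 weeks and 2 fell (Ccl25 and Cxcl12), against 21.4% of all genes higher and 21.3% lower. The Cxcl12 call (-0.29 ± 0.11, adjusted p = 0.0266, limma) was lost with array medians centred over all features, with only the groups compared, with rank-sum tests, and when any of 5 single mice was left out (KO mice 1 and 3 of 4 weeks, and 4, 5 and 6 of 7 weeks). The share of higher calls over all genes was 50.1%, and 65.0% or 35.1% with array medians centred over all features or over the genes tested. The 34 are the members that were higher than WT at 7 weeks, a comparison that uses the same 7-week KO mice. Among them, the calls of Cxcl3 and Cxcr3 were lost with rank-sum tests and with centring on the genes tested. Each was also lost when any of several single KO mice was left out. Ccl25 was at 6.60, 6.78 and 6.84 at 4 weeks and 6.26, 6.39 and 6.61 at 7 weeks (-0.34 ± 0.06, adjusted p = 8.96e-06), so it fell with age in both genotypes. Its KO minus WT difference at 7 weeks was -0.13 ± 0.06 (adjusted p = 0.0674).

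The 8 KO mice of 7 weeks were unequal. Over the 34 members that rose, mice 1, 4, 6 and 8 were among the 4 highest of the group for 25, 30, 27 and 32 members, and mice 2, 3, 5 and 7 for 5, 3, 4 and 10. Mice 4, 6 and 8 exceeded every WT mouse for all 34, and mice 2 and 5 for 28 each. For Ccl6 the 4 high mice were at 8.87, 9.21, 9.43 and 8.94 and the other 4 between 7.38 and 8.24, and for Ccr2 at 8.97, 9.19, 9.34 and 9.13 against 8.11 to 8.42. The order was not the same for each gene: Ccl17 in mouse 1 (9.33) was below mice 2 (9.38) and 5 (9.62).

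The mean macrophage marker level was highest in the same 4 mice, at 9.09, 9.06, 9.19 and 8.98, against 8.04 to 8.45 in the other 4. The same mice were also highest for T cell markers (6.37, 6.63, 6.27 and 6.71 against 5.91 to 6.16) and dendritic cell markers (7.61, 7.79, 7.67 and 7.79 against 7.25 to 7.47). The part of these lists in the spread was not tested. The median standard deviation over the 34 members was 0.39 in these KO mice, 0.22 in WT at 7 weeks, 0.23 in KO at 4 weeks and 0.38 in WT at 4 weeks. For the other 21 members it was 0.14 in KO and 0.19 in WT at 7 weeks.

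**Figure D4:**
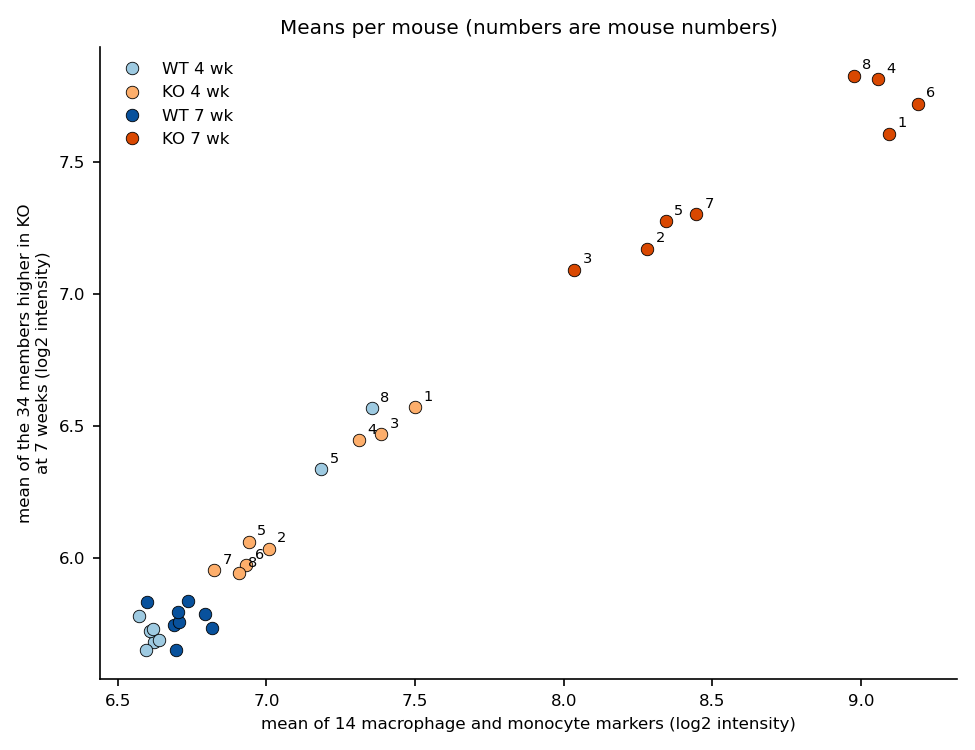
Mean log2 intensity of the 34 members that were higher in KO at 7 weeks (y axis) against that of 14 macrophage and monocyte markers (x axis), 1 point per mouse, coloured by group; numbers name the KO mice and WT mice 5 and 8 of 4 weeks. The 7-week KO mice fall in an upper 4 (mice 1, 4, 6, 8) and a lower 4, and WT mice 5 and 8 of 4 weeks lie beside KO mice 1, 3 and 4 of that age.

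Genes that act downstream of chemokine receptors were also higher at 7 weeks. Of 19 such genes 17 rose and 0 fell, with a median difference of 0.94, led by Rac2 (1.99 ± 0.16), a GTPase of leukocyte movement, Pik3r5 (1.30 ± 0.11), a subunit of the lipid kinase that G proteins activate, and Dock2 (2.06 ± 0.18), which activates Rac in lymphocytes. Several of these genes are expressed mainly in leukocytes, whose markers rose as given above, and the part of those cells was not tested. Among 18 cytokines, transcription factors and proteases that induce or trim chemokines, 15 rose and 0 fell, with a median of 0.90. They were led by Tnfaip3 (1.65 ± 0.12), an inhibitor of NF-κB signalling, Mmp12 (2.42 ± 0.18), a macrophage elastase that cleaves chemokines, Nfkbiz (1.74 ± 0.13) and Tnf (1.46 ± 0.13). Ifng and Il17a did not pass (0.03 ± 0.11 and 0.05 ± 0.10). Of 6 chemokine relatives outside the numbered names, Pf4 (0.88 ± 0.12), a platelet and macrophage product, and Cmklr1 (0.48 ± 0.13), a chemerin receptor, rose and 0 fell. None of these 3 lists had a gene that passed at 4 weeks.

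Many chemokine genes arose by duplication and stand side by side. In the order of the RefSeq genes, 34 of the 55 members lie in 9 runs with at most 2 other genes between neighbours. In 3 runs all members rose: Cxcl9, Cxcl10 and Cxcl11 (2.71 to 3.06), Ccl22, Cx3cl1 and Ccl17 (0.87 to 4.10), and Cx3cr1 with Ccr8. In the run Ccl2, Ccl7, Ccl11, Ccl12, Ccl8, Ccl1 the first 4 rose and the last 2 did not pass, with differences from 4.47 to -0.03. The run Ccl5, Ccl9, Ccl6, Ccl3, Ccl4 went from 4.57 down to 0.15. Within Cxcl5, Cxcl3, Cxcl15, Cxcl1, Cxcl2, the gene in the middle, Cxcl15, did not pass (-0.26 ± 0.14) while the 4 around it rose. The receptor run Ccr9, Cxcr6, Xcr1, Ccr1, Ccr3, Ccr2 held 4 that rose and 2 that did not, Ccr9 and Ccr3. Neither Ccl26 nor Ccl24 passed, and of Cxcr2 and Cxcr1 only Cxcr2 did. In these runs Cxcl15, Ccl8, Ccr3, Ccl24 and Ccl26, which did not pass, had signals below the 25th percentile of gene levels in every group. So did Ccl12 and Cxcl3, which rose. Members of such runs are related in sequence, and signal shared between their probe sets was not tested.

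**Figure D5:**
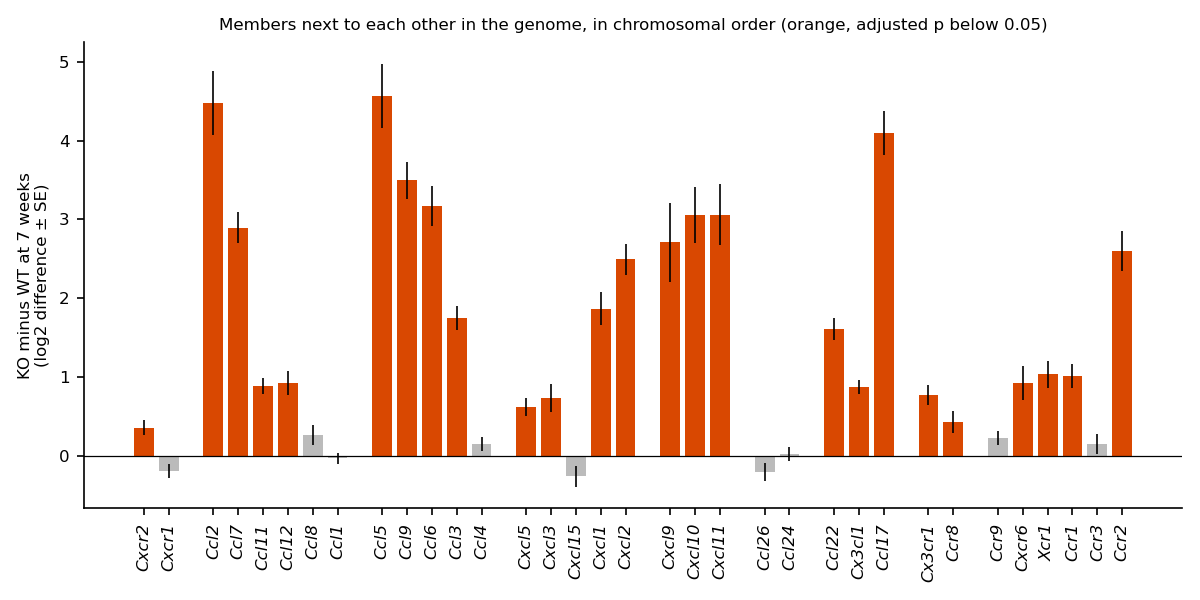
KO minus WT difference at 7 weeks (log2 units, bars, with standard errors) of 34 members in chromosomal order within 9 runs of neighbouring genes; orange bars passed at an adjusted p below 0.05 and grey bars did not. In the runs of Ccl2 and of Ccl5 the bars range from 4.47 and 4.57 to near 0.

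Promoter sequences were set beside these neighbours, since members of a run can share or lack short motifs near their start. RefSeq promoters (GRCm38.p6) were matched for 41 members, and the 250 bases before the start were searched on both strands for GGG and CC with any 5 bases between them (NF-κB-like), TTCNNNGAA (STAT-like), TGANTCA (AP-1-like) and, added later, GAAA and GAAA with any 2 bases between them (interferon-element-like). The NF-κB-like motif can overlap itself on the other strand. Shown are 3 genes of the Cxcl1 run, of which Cxcl15 did not pass, 2 interferon-induced genes and Ccl17, the gene with the largest difference of those matched, each 5′ to 3′ toward the gene with matches in capitals.
Cxcl15 (chr5:90794284-90794533, plus strand): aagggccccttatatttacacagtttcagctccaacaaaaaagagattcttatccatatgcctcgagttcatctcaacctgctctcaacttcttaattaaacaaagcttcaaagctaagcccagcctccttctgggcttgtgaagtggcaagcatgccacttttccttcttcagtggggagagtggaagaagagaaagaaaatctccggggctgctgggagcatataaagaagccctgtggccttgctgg
Cxcl1 (chr5:90890995-90891244, plus strand): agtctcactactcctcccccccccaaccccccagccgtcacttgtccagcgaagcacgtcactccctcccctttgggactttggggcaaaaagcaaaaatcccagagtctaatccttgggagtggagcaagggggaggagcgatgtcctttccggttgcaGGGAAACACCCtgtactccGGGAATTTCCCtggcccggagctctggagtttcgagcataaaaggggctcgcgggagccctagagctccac
Cxcl2 (chr5:90903649-90903898, plus strand): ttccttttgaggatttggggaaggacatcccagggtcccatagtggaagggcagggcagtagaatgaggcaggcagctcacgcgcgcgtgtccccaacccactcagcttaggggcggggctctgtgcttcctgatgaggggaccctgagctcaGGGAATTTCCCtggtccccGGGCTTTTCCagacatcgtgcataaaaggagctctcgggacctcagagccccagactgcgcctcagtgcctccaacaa
Cxcl9 (chr5:92328080-92328329, minus strand): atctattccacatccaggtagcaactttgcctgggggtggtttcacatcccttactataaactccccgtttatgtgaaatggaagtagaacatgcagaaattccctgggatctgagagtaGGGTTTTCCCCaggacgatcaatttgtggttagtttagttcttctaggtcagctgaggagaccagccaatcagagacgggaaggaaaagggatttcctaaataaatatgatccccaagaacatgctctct
Cxcl10 (chr5:92348890-92349139, minus strand): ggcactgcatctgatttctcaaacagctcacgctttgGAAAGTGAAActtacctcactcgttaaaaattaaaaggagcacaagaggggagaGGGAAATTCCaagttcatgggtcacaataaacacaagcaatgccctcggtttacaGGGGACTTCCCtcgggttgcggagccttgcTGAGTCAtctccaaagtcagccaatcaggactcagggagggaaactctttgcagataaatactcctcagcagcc
Ccl17 (chr8:94810203-94810452, plus strand): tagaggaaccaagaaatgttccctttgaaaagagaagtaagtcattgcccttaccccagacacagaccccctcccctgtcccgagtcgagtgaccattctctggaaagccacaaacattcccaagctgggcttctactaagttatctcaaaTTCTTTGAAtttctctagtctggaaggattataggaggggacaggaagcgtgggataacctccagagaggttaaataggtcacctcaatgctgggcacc
In these windows Cxcl1 and Cxcl2 each hold 2 stretches that match the NF-κB-like motif, and Cxcl15 holds no match to any of the 4 motifs. The Cxcl15 signal lay below the 25th percentile of gene levels in every group. Cxcl10 holds NF-κB-like stretches at -159 to -150 and, as overlapping matches, at -104 to -94, an AP-1-like match at -74 to -68 and an interferon-element-like match at -213 to -204, counted from the start. Cxcl9 holds the NF-κB-like motif at -130 to -120 and Ccl17 a STAT-like match at -99 to -91. The NF-κB-like motif was present in 14 of 25 members that rose (56.0%), in 10 of 16 others (62.5%) and in 45.8% of all 32851 promoter windows. The STAT-like motif was in 2 of 25, 1 of 16 and 7.02%, the AP-1-like motif in 2 of 25, 3 of 16 and 6.75%, and the interferon-element-like motif in 2 of 25, 0 of 16 and 2.98%. A member was counted if any of its windows matched, whereas the share of all promoters is per window. Ccl25, Ccl27a and Ccr6, which did not rise, had several windows each, so the shares are not on the same footing. A match is only a run of letters and does not show that a factor binds there. The sequences are those of the reference assembly and were not checked against the strain of these mice.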

How the data were processed

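The deposited table holds 1 column per mouse of log2 values of gene-level RMA expression, per the labels, from Affymetrix Expression Console (version unstated); the arrays were Mouse Gene 2.0 ST, per the series' design text. No scanner files, scan dates or slides were used. Of 41345 features, 23521 name 1 gene symbol in the platform annotation and 1814 name several; the feature with the highest mean was kept for each of 22180 symbols, without a filter on low values. The 33 features that name several genes, any of them with a symbol of this family, were not used. A linear model of the 4 group means (28 residual degrees of freedom) was fitted to all genes with limma 3.58.1 in R 4.3.3 and eBayes, and 5 comparisons were tested, with Benjamini-Hochberg adjustment over all genes and a threshold of 0.05. SE is the moderated standard error. The script was tested on simulated arrays.

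The members, the lists of other genes and the tests were chosen with earlier results of these data known. Every member could be named; group values are given for the 14 members with the largest difference at 7 weeks, each receptor that passed, up to 4 genes per direction that changed with age in WT, and up to 6 pair members that did not pass, and up to 4 genes of a list are named, smallest p first, among those that passed. Some genes of a list that did not pass are named as well. RefSeq tables (GRCm38.p6) gave names, gene order and promoters, and were not checked against the strain of these mice. The array's own build is unstated in these sources. Protein sequences were not used here. Alternatives covered the scaling, weights, filter, feature rule, test, replicate block and single mice left out; leaving out WT mice 5 and 8 or KO mice 4 and 5 of 4 weeks, centring on the genes tested and the interferon-element motif were added after seeing the data.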

Additional observations from a re-analysis of the deposited data

Results flagged for a closer look

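Among 220 groups of 8 values (55 members in 4 groups), 26 held a highest or lowest mouse whose gap to the next mouse exceeded Dixon's critical share of the group's range at 95%. Chance alone passes that limit in about 1 group in 20. In WT at 4 weeks, mouse 1 stood apart for Ccl28 (7.90, low). In WT at 4 weeks, mouse 5 stood apart for Ccl17 (7.58, high), Ccl9 (8.01, high), Cxcl1 (6.23, high) and Cxcl5 (5.47, high). The same group's mouse 6 stood apart for Cxcl13 (5.33, low). Its mouse 7 stood apart for Ccl1 (5.45, high). WT mouse 8 of that age stood apart for Cx3cr1 (7.90, high), Cxcl10 (9.38, high), Cxcl9 (11.48, high), Cxcr6 (6.62, high), Xcl1 (6.02, high) and Xcr1 (6.61, high). In KO at 4 weeks, mouse 1 stood apart for Ccl12 (4.32, high) and Ccl4 (5.86, low). In KO at 4 weeks, mouse 4 stood apart for Cx3cl1 (9.002, high), Cxcl10 (8.86, high), Cxcl12 (8.84, low) and Cxcl14 (6.37, low). In WT at 7 weeks, mouse 1 stood apart for Ccl28 (10.76, low). In WT at 7 weeks, mouse 5 stood apart for Ccr2 (5.49, low). In KO at 7 weeks, mouse 1 stood apart for Cxcl15 (3.45, low). In KO at 7 weeks, mouse 2 stood apart for Cxcr3 (5.72, low) and Cxcr5 (5.24, low). In KO at 7 weeks, mouse 4 stood apart for Ccr6 (5.28, high). In KO at 7 weeks, mouse 6 stood apart for Ccl24 (5.03, high). Of the 26 values, 13 were in WT at 4 weeks, 6 in KO at 4 weeks, 5 in KO at 7 weeks and 2 in WT at 7 weeks.

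The KO minus WT difference changed between 4 and 7 weeks for 29 members by the interaction test (limma, adjusted p below 0.05). The log2 changes (difference at 7 weeks minus that at 4 weeks) of the ligands were Ccl5 3.49, Ccl2 3.30, Ccl17 3.00, Ccl9 2.69, Ccl6 2.59, Cxcl10 2.57, Cxcl9 2.50, Cxcl11 2.39, Ccl7 2.37, Cxcl2 2.12, Ccl3 1.75, Cxcl1 1.49, Ccl22 1.48, Cxcl17 1.10, Cxcl16 1.08, Ccl12 1.02, Cxcl14 0.98, Cxcl13 0.98, Ccl11 0.76, Xcl1 0.64, Cx3cl1 0.57 and Ccl20 0.47. Those of the receptors were Ccr2 2.07, Ccr7 1.28, Ccr1 0.96, Cxcr6 0.92, Xcr1 0.87, Cx3cr1 0.71 and Cxcr1 -0.46. Cxcr1 alone had a negative change of the KO minus WT difference. Its level rose with age in WT and did not pass with age in KO.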

How the results depend on the processing

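The 34 calls at 7 weeks were kept in all alternatives other than a filter on low values, which removes Ccl12 and Cxcl3 before testing (33 higher, Ccr9 added), and centring on the genes tested, which loses Cxcr3; single mice left out gave 34 to 36. At 4 weeks, single mice left out gave 0 to 3 higher members, and leaving out WT mice 5 and 8 together gave 6. Members lower at 7 weeks numbered 0, but 1 with array medians centred over all features, quantile normalization, only the groups compared, the mean of all features of a gene, rank-sum tests or KO mice 4 and 5 of 4 weeks left out, 4 with array weights, 6 with centring on the genes tested, and 0 to 1 with single mice left out. Members with a lower signed difference at 7 than at 4 weeks numbered 2 with array weights and with centring on the genes tested. They also numbered 2 with WT mice 5 and 8 left out. Members with a higher signed difference numbered 27 to 30 with single mice left out (1 lower each time). In WT with age, rank-sum tests gave 2 higher, and 1 fell, instead of 2, with the replicate block, both centrings, quantile normalization, array weights, only the groups compared, rank-sum tests and either pair of mice left out; single mice left out gave 3 to 4 higher and 1 to 2 lower. In KO with age, members lower numbered 1 with centring over all features, 6 with centring on the genes tested and 1 to 3 with single mice left out, and higher ones 32 to 35. The fit with the replicate number as a block changed only the WT calls of Ccl4 and Cxcr4, which were lost. Mice with the same number in different groups were checked for pairing: their deviations from the group means correlated between -0.27 and 0.23, with at most 2 of 8 numbers over 0.1 for any pair of groups, so the numbers were not taken to pair mice. The causes of these changes were not tested.

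Signs turned only for 4 members near 0 at 7 weeks: Ccl1 (0.0015 with quantile normalization), Ccl24 (-0.025 with array weights, -0.0902 with centring on the genes tested, and -0.022 to 0.055 with single mice left out), Ackr1 (-0.073 to 0.0021 with single mice left out) and Ackr2 (-0.089 to 0.015 likewise). Precision is limited by 8 arrays per group, and 9 members (Ackr4, Ccl8, Ccl12, Ccl24, Ccl26, Ccr3, Ccr4, Cxcl3 and Cxcl15) stayed below the 25th percentile of gene levels in every group.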

Other observations

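The 33 features that name several genes, any of them of this family, were in none of the comparisons above. They differed little between genotypes. Their KO minus WT difference ranged from -0.17 to 0.31 at 7 weeks (median 0.09) and from -0.16 to 0.35 at 4 weeks (median 0.04). In 0 of them did all KO mice lie above or below all WT mice at either age. Since the annotation gives each of them several symbols, their values are assigned to no single gene.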
